A study of Neurospora crassa OR74A and Aspergillus nidulans FGSC A4 with 22 samples.

Results

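A set of 9 genes of mating and sexual development was followed in wild-type *Neurospora crassa*: *mat A-1*, *mat A-2* and *mat A-3* of the mating-type locus, the pheromone gene *ccg-4*, the pheromone receptor genes *pre-1* and *pre-2*, the regulator genes *fmf-1* and *sub-1*, and *poi-2*. They were taken by their NCU identifiers and were chosen by function and in part by the group means of *poi-2*, which were already known to be lower on Avicel. All 9 were found among the 9582 *N. crassa* genes of the deposited table, or among 20178 genes with the *A. nidulans* table of the same series. Because that difference chose the set, the comparison of Avicel with No Carbon is given below as a description and was not tested. Wild-type strain OR74A, the background of the reference genome, was grown for 16 h at 25°C in liquid medium with 2% sucrose, shaken at 200 rpm in constant light. Hyphae were washed and moved for 4 h to medium with 2% Avicel PH-101, a microcrystalline cellulose, or to medium with no added carbon source. Each of these groups had 3 biological replicates, so 6 of the 22 samples of the series stand behind the values. Both groups carried the wild-type genotype.

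*N. crassa* strains are of mating type *A* or *a*, and the OR74A genome carries the *A* form of the locus. Under nitrogen limitation a strain forms protoperithecia, whose receptive hyphae grow toward a cell of the opposite mating type along a gradient of peptide pheromone. The pheromone is sensed by a G protein-coupled receptor and a MAP kinase cascade, and after fertilization the protoperithecium develops into a perithecium, in which meiosis takes place. Mating-type proteins set which pheromone and receptor a strain uses and act again after fertilization.

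The files give 1 mean per group and gene, in normalized counts, that is, reads per gene divided by the size factor DESeq assigns to a library for its depth. Every read adds a fixed amount to the mean, set by its library, so for low means the number of reads in each library could be solved. Libraries are numbered here from the largest to the smallest size factor within their group, since they could not be matched to replicate numbers. The size factors of the Avicel libraries were 0.957, 0.884 and 0.169, against 2.68, 2.51 and 1.03 for the No Carbon libraries. Estimated depths were 9.67 to 54.9 M counted reads per Avicel library, against 43.0 to 112 M per No Carbon library. One read in Avicel library 3 therefore counts for more than a read in any other library. The reads behind each single library could be solved in both groups for *poi-2*, *mat A-3* and *mat A-2*, and on Avicel also for *pre-2* and *fmf-1*. For *mat A-1*, *ccg-4*, *pre-1* and *sub-1* the means were too high, and their differences have no replicate check here. Values per library from the study's supplement were not used here. Among solved genes whose mean reached 20, the median standard deviation between libraries was 0.41 on the log2 scale on Avicel (1976 genes) and 0.38 on No Carbon (948 genes). The labels were checked with the cellobiohydrolase gene *cbh-1* (NCU07340), whose mean on Avicel was 1213 times that on No Carbon.

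**Figure D1:**
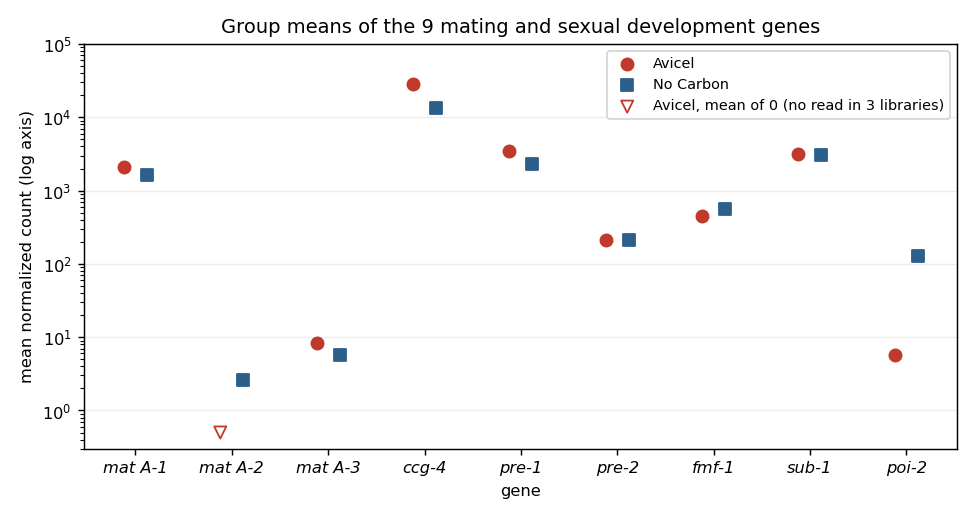
Mean normalized count (log axis) of each of the 9 genes in the Avicel group (red circles) and the No Carbon group (blue squares), 3 libraries behind each mean. The pairs of points lie close together except for *ccg-4*, higher on Avicel at 28593 against 13530, *poi-2*, lower on Avicel at 5.75 against 126, and *mat A-2*, with no read on Avicel (open triangle, placed near the foot of the log axis, which has no 0).

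The mean over both groups reached 10 in 7 of the 9 genes, and *mat A-2* and *mat A-3* stayed under this minimum. Of these 7, *ccg-4* was at least 2-fold higher on Avicel, as were 7.64% of the 8782 genes past the same minimum, and *poi-2* was at least 2-fold lower, as were 4.74% of them. With an Avicel mean of 5.75, *poi-2* passed the minimum only through No Carbon. Its direction was thus set by the minimum as well as by the choice of the set. The other 5 genes were within 2-fold, as were 87.6% of all genes past the minimum. Their median log2 ratio of Avicel over No Carbon was 0.03, against -0.01 over all genes past the minimum. In cultures of this kind, fewer cells that express a gene and less RNA per cell cannot be told apart. The scaling between the groups matters for small differences, because rescaling the means to equal sums moves every log2 ratio by -0.45.

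**Figure D2:**
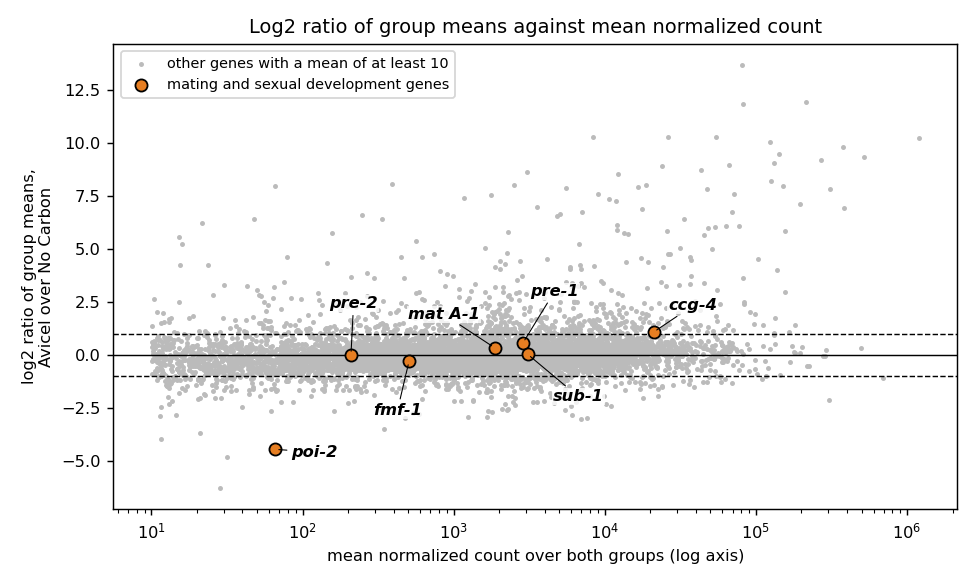
Log2 ratio of the Avicel mean over the No Carbon mean (vertical axis) against the mean normalized count over both groups (horizontal, log axis) for 8782 genes with a mean of at least 10, with dashed lines at 2-fold. The 5 genes *mat A-1*, *pre-1*, *pre-2*, *fmf-1* and *sub-1* lie inside the lines, *ccg-4* at 1.08 lies just above the upper line, and *poi-2* at -4.45 lies far below the lower one.

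The mating-type genes lie side by side in RefSeq's annotation of the NC12 assembly, in the order *mat A-3*, *mat A-2*, *mat A-1*. *mat A-1* (NCU01958), whose alpha-domain protein is needed for mating as an *A* strain, averaged 2081 normalized counts in the Avicel group and 1649 in the No Carbon group. Its log2 ratio was 0.34, at percentile 76.3 of all genes past the minimum, and it turned to -0.12 when the means were rescaled to equal sums. NCU01961, which flanks the locus beside *mat A-3*, had means of 693 on Avicel and 731 on No Carbon.

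*mat A-3* (NCU01960), which encodes an HMG-box protein, was covered by few reads, with a mean of 8.39 on Avicel and 5.66 on No Carbon (log2 ratio 0.57). On Avicel its 3 libraries held 3, 9 and 2 reads, or 3.14, 10.2 and 11.9 normalized counts, against 18, 16 and 4 reads on No Carbon, or 6.70, 6.38 and 3.89 normalized counts. The groups overlapped, since the lowest Avicel library lay below the lowest No Carbon library and the other Avicel libraries lay above all 3 on No Carbon. Summed over libraries and divided by the summed size factors, the level was 6.97 on Avicel (95% exact Poisson interval 3.81 to 11.7). It was 6.11 on No Carbon (4.32 to 8.38), and the intervals overlapped. Such intervals cover counting error only, and whether the groups differ in *mat A-3* was not tested.

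*mat A-2* (NCU01959), known to act after fertilization, had no read in any Avicel library, against 7, 3 and 4 reads in the No Carbon libraries, or 2.61, 1.20 and 3.89 normalized counts. A count of 0 over the Avicel group allows a level of up to 1.49 normalized counts, taken as 3 reads over the group. By the same measure, summed reads over summed size factors, No Carbon stood at 2.25, and its group mean was 2.56. The 95% exact Poisson interval was 0 to 1.84 on Avicel and 1.23 to 3.78 for the 14 summed No Carbon reads, so the intervals overlapped. Such an overlap is no test of a difference, and whether the groups differ in *mat A-2* was not tested.

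The pheromone gene *ccg-4* (NCU02500) encodes the peptide pheromone precursor of *A* strains and was first isolated as a clock-controlled gene. It averaged 28593 normalized counts in the Avicel group and 13530 in the No Carbon group, a 2.11-fold ratio (log2 ratio 1.08). That ratio stood at percentile 93.1 of all genes past the minimum. Of the 754 genes with a mean within 2-fold of that of *ccg-4*, 98 had a log2 ratio as high or higher, *ccg-4* included. With the means rescaled to equal sums the log2 ratio was 0.62 and thus under 2-fold. Its neighbours in the annotation were NCU02499, with means of 491 on Avicel and 348 on No Carbon, and NCU02501, with 9.88 and 8.29. The 5 genes whose pair of group means was nearest to that of *ccg-4*, by distance on the log2 scale, were *gh31-2* (NCU04203), NCU06702, NCU01704, NCU05133 and NCU04904, with distances of 0.16 to 0.26. With only a pair of means per gene, this likeness covers level and ratio and no more.

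Since *ccg-4* is clock-controlled, a list of 8 other genes was set beside it, clock-controlled genes and the clock gene *frq*. The list was chosen with earlier results of these data known and does not stand for all clock-controlled genes. It shares *eas* with the list of asexual spore formation used below. The cultures were kept in constant light, where the study describes the circadian rhythm as dampened, and a part of the clock was not tested. Of the 8 genes of this list, 4 were at least 2-fold higher on Avicel, against 7.64% of all genes, and 2 at least 2-fold lower, against 4.74%. *ccg-8* (NCU09686), with means of 6550 on Avicel and 2445 on No Carbon, and *ccg-9* (NCU09559), with 10280 and 3853, had log2 ratios of 1.42 each. *ccg-6* (NCU01418) had a log2 ratio of 1.05 and *gpd-1* (NCU01528), also known as *ccg-7* and encoding a glycolytic dehydrogenase, one of 1.10. In the other direction, *ccg-1* (NCU03753) had a log2 ratio of -1.10 and *eas* (NCU08457), also *ccg-2*, which encodes the hydrophobin of conidia, one of -2.15. Genes of this list thus lay on both sides of 0, with a median of 0.29. Rescaling to equal sums left 4 higher and 4 lower, against 18.2% of all genes higher. The number at least 2-fold higher became 0, against 388 of 8782 genes. The number at least 2-fold lower became 3, against 13.8% of all genes. The clock gene *frq* (NCU02265) had means of 6055 on Avicel and 11401 on No Carbon.

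Of the receptor genes, *pre-1* (NCU00138), the receptor through which *A* strains sense the pheromone of *a* strains, had a mean of 3429 on Avicel and 2317 on No Carbon. The log2 ratio of 0.57 stood at percentile 85.7, and it became 0.11 with equal sums. Its neighbour NCU00142 had a similar ratio, with means of 1745 on Avicel and 1192 on No Carbon and a log2 ratio of 0.55, and NCU00137 on the other side had a log2 ratio of 0.20.

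*pre-2* (NCU05758), the receptor for the CCG-4 pheromone, is used in mating by *a* strains. It had 199, 224 and 28 reads in the Avicel libraries, or 208, 254 and 166 normalized counts, and a mean of 209 in both groups. On No Carbon the mean of 209 allowed 2 sets of reads, either 992, 286 and 147 or 619, 449 and 223. In normalized counts the first set is 369, 114 and 143 and the second 231, 179 and 217. Either way the No Carbon libraries overlapped with those on Avicel, and the log2 ratio of 0.00 was the nearest to 0 of the 8 genes with a ratio. Leaving out Avicel library 2 or 3 moved it to -0.16 and 0.14, and equal sums to -0.45. Its neighbour NCU05757 had a log2 ratio of 0.16. The receptor genes therefore differed in their ratio, but whether by more than the spread between libraries could not be tested.

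The genes that carry the pheromone signal inside the cell were counted next. All 13 genes of a list of G protein subunits, kinases and regulators were within 2-fold, against 87.6% of all genes, with log2 ratios from -0.15 to 0.78 and a median of 0.38, and 12 of the 13 had a higher mean on Avicel, against 48.9% of all genes past the minimum. With equal sums 4 of the 13 were higher, against 18.2% of all genes. The median was then -0.07, against -0.47 over all genes. The highest ratio was that of *gnb-1* (NCU00440), the G protein β subunit, with means of 14681 on Avicel and 8527 on No Carbon. The lowest was that of *gna-3* (NCU05206), a G protein α subunit, with 1818 and 2015. The MAP kinase gene *mak-2* (NCU02393) had a log2 ratio of 0.38, its upstream kinases *mek-2* (NCU04612) and *nrc-1* (NCU06182) had 0.19 and 0.67, and the Ste12-type factor *pp-1* (NCU00340) had 0.40.

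Both regulator genes were within 2-fold. *fmf-1* (NCU09387), an HMG-box factor needed for female and male fertility, had 471, 390 and 72 reads in the Avicel libraries, or 492, 441 and 427 normalized counts. These 3 values lay close together although the libraries differed in depth. On No Carbon its mean was 559, behind which 5 sets of reads were possible, so its libraries are not given. The log2 ratio was -0.30, at percentile 25.4, and it ran from -0.36 to -0.26 when single Avicel libraries were left out. Its neighbours NCU09388 and NCU09386 had log2 ratios of 0.16 and -0.52. *sub-1* (NCU01154), a transcription factor gene named for protoperithecia that form submerged in the agar, had means of 3117 on Avicel and 3055 on No Carbon. Its log2 ratio of 0.03 stood at percentile 53.6 and turned to -0.43 with equal sums.

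Among 13 other genes with known roles in fruiting body development, 11 were within 2-fold, against 87.6% of all genes. The exceptions were *vib-1* (NCU03725), a transcription factor also known for its part in heterokaryon incompatibility, with means of 30813 on Avicel and 5635 on No Carbon (log2 ratio 2.45), and *bek-1* (NCU00097), a transcription factor of perithecial beak formation. The mean of *bek-1* was 111 on Avicel and 377 on No Carbon, a log2 ratio of -1.77. Its Avicel libraries held 128, 149 and 5 reads, or 134, 169 and 29.7 normalized counts, so that library 3 stood below the others. The list had a median log2 ratio of 0.36, with 10 genes higher on Avicel and 3 lower, against 48.9% of all genes higher. With equal sums 3 were higher and 10 lower, against 18.2% of all genes higher.

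Reads of genes for meiosis and for the silencing of unpaired DNA in meiosis were also found in these hyphae. Of 6 such genes 4 passed the minimum, all 4 with a lower mean on Avicel, against 51.1% of all genes, and a median log2 ratio of -0.27. With equal sums all 4 were again lower, against 7187 of 8782 genes. The median was then -0.72, against -0.47 over all genes. The largest of these differences was that of *sad-1* (NCU02178), an RNA-dependent RNA polymerase gene, at 94.1, 75.8 and 41.5 normalized counts in the Avicel libraries, against 134, 91.7 and 85.6 on No Carbon. The groups overlapped, as the highest Avicel library lay above the middle No Carbon library. For *spo11* (NCU01120), which encodes the protein that makes meiotic DNA breaks, the values were 73.2, 73.6 and 94.9 in the Avicel libraries, against 109, 122 and 96.3 on No Carbon. Here the groups did not overlap, but all Avicel libraries also lay below all No Carbon libraries in 15.0% of the 1150 genes past the minimum that were solved in both groups, and above them in 9.30%. The Argonaute gene *sms-2* (NCU09434), with 6, 2 and 1 reads in the Avicel libraries, against 22, 32 and 7 on No Carbon, and *sad-2* (NCU04294), with 7, 3 and 0 reads in the Avicel libraries, against 1, 1 and 3 on No Carbon, were too low to compare. The smallest difference in the list was that of *mei-3* (NCU02741), a RecA-type repair gene, at a log2 ratio of -0.04.

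**Figure D3:**
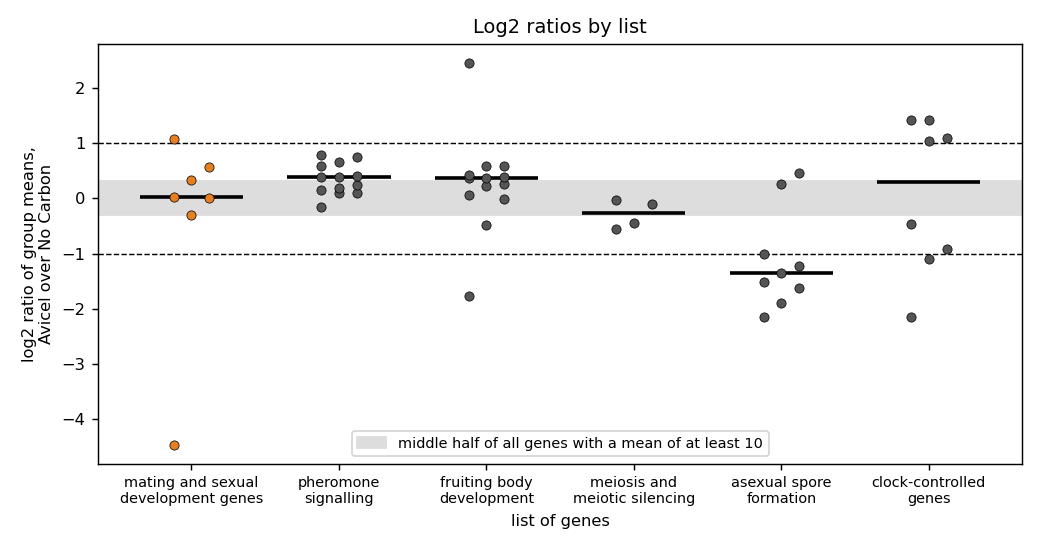
Log2 ratio of the Avicel mean over the No Carbon mean (vertical axis) for the genes with a mean of at least 10 in the set of mating and sexual development genes (orange) and in 5 other lists (dark), with bars at the median and a grey band from the lower to the upper quartile of all genes. The medians are 0.03, 0.38, 0.36, -0.27, -1.34 and 0.29 from left to right, and the lowest point of all is *poi-2* at -4.45.

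*poi-2* (NCU05768), known for its high expression in sexual and perithecial tissue and needed for normal sexual development, showed the largest difference of the 9 genes. It averaged 5.75 normalized counts in the Avicel group and 126 in the No Carbon group, a 21.9-fold lower mean on Avicel (log2 ratio -4.45). This is the difference by which the set was chosen in part. On Avicel 3, 2 and 2 reads of *poi-2* were found in libraries 1, 2 and 3, or 3.14, 2.26 and 11.9 normalized counts. On No Carbon there were 77, 28 and 348 reads, or 28.7, 11.2 and 339 normalized counts.

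Library 3 on No Carbon thus held 89.5% of the summed normalized counts of that group, 11.8 times the higher of the other libraries. The groups overlapped: Avicel library 3, at 11.9 normalized counts, lay above No Carbon library 2, at 11.2. That Avicel value rests on 2 reads in the shallowest library, and its exact Poisson interval ran from 1.44 to 42.8, against 7.42 to 16.1 for No Carbon library 2. Without No Carbon library 3 the log2 ratio of *poi-2* was -1.79, and it ran from -5.55 to -4.07 when any other single library was left out. Summed reads over summed size factors gave 3.48 on Avicel (95% exact Poisson interval 1.40 to 7.18) and 72.8 on No Carbon (66.3 to 79.8), an interval for counting error that takes no account of the spread between the No Carbon libraries.

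**Figure D4:**
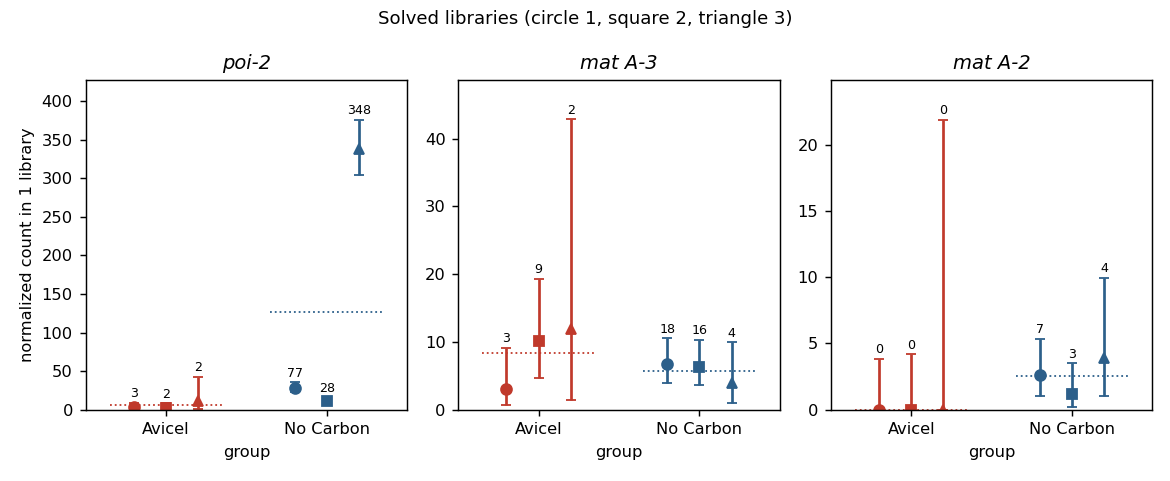
Normalized counts of *poi-2*, *mat A-3* and *mat A-2* in each library of the Avicel group (red) and the No Carbon group (blue), with 95% exact Poisson intervals as bars, the number of reads above each bar, circles, squares and triangles for libraries 1, 2 and 3, and the group mean as a dotted line. For *poi-2* the No Carbon mean of 126 is drawn up by library 3 at 339, while libraries 1 and 2 stand at 28.7 and 11.2; the bars of *mat A-3* overlap between the groups.

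The same library was then looked at in all solved genes. Of 948 genes solved on No Carbon with a mean of at least 20, library 3 was at least 5 times each of the other libraries in 6, or 0.633%, a limit chosen after the values of *poi-2* were seen. Of these 6 genes, 5 lay in 1 stretch of the annotation: *poi-2*, NCU05761, NCU05762, NCU05763 and NCU05764. The sixth, NCU11984, is not in the annotation used here, and its place was not determined. Apart from *poi-2*, all of these genes lay under 20 in libraries 1 and 2. For *poi-2* these libraries stood at 28.7 and 11.2, which average under 20. All 6 thus reached the minimum only through library 3, and the share of 0.633% is no measure of how rare they are. Among the same 948 genes, library 2 on No Carbon stood apart in this way upward in 16 genes and library 1 in none.

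That stretch begins at *pre-2* and ends at *poi-2*. RefSeq lists 13 genes between them, of which 8 were in the table and the other 5 (NCU17267 to NCU17271) were not analysed here. Reads on No Carbon were solved for 6 of the 8, and 4 of these 6 had a mean of at least 20. Each of these 4 had library 3 at 9.06 to 19.2 times the higher of the other libraries. They lay under 20 in libraries 1 and 2, so they reached that mean only through library 3. NCU05762 had 1, 1 and 0 reads in the Avicel libraries, against 22, 7 and 162 on No Carbon, or 8.19, 2.79 and 158 normalized counts. NCU05761 had 3, 3 and 0 reads in the Avicel libraries, against 38, 1 and 172 on No Carbon, or 14.2, 0.40 and 167 normalized counts. NCU05764 had 3, 0 and 1 reads in the Avicel libraries, against 18, 3 and 112 on No Carbon, and NCU05763 had 4, 0 and 0 in the Avicel libraries, against 17, 4 and 59 on No Carbon.

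These 4 genes and *poi-2* shared the order of the No Carbon libraries as well, with library 3 highest, library 1 next and library 2 lowest. The order matches in each gene but is a description of 3 libraries, and it was noticed in the data. The genes next to *pre-2*, NCU05759 and NCU05760, had no read on Avicel and 9 reads and 1 read in all on No Carbon, too few to compare libraries. NCU11984, outside the annotation and picked by the same limit, had no read on Avicel and 23, 3 and 58 reads on No Carbon.

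At the *poi-2* end of the stretch the means were higher. The direct neighbour NCU05767 had a mean of 291 on Avicel and 2188 on No Carbon, a log2 ratio of -2.91, and NCU05766 next to it had 312 and 791, a log2 ratio of -1.34. On Avicel the libraries of NCU05767 were even, at 277, 275 and 320 normalized counts, and those of NCU05766 stood at 290, 327 and 320. Their No Carbon reads could not be solved, so whether library 3 also carries their No Carbon means was not tested. Of the 8 measured genes between *pre-2* and *poi-2*, 6 passed the minimum mean of 10. All 6 had a lower mean on Avicel, against 51.1% of all genes. NCU05761, NCU05762, NCU05763 and NCU05764 had Avicel means of 0.73 to 3.02 and passed only through No Carbon. Their direction was thus set by the minimum, and the count only describes a stretch noticed in the data. The mean of *pre-2* itself was 209 in both groups. On the far side of *poi-2*, NCU05769 had 0 reads in the Avicel libraries, against 2, 0 and 2 on No Carbon, and the catalase gene *cat-2* (NCU05770) had means of 37373 and 62051, a log2 ratio of -0.73.

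**Figure D5:**
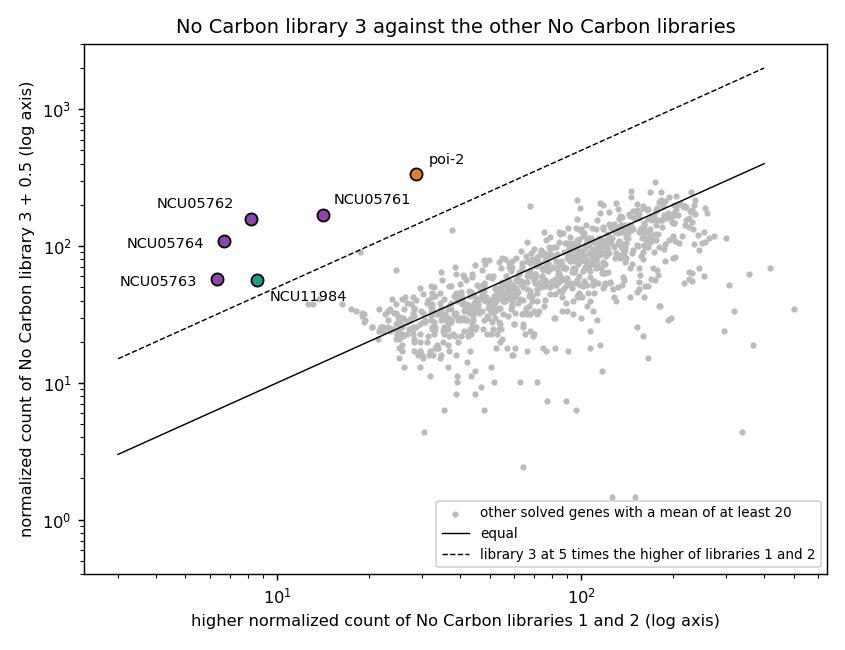
Normalized count in No Carbon library 3, plus 0.5 (vertical, log axis), against the higher of No Carbon libraries 1 and 2 (horizontal, log axis) for 948 solved genes whose mean reached 20; the solid line marks equal values and the dashed line 5 times. Above the dashed line lie 6 genes, *poi-2* at 339 against 28.7 (orange), 4 genes between *pre-2* and *poi-2* (purple) and NCU11984 (green).

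The 5 genes with the pair of group means nearest to that of *poi-2* were NCU09391, NCU09342, NCU02638, NCU05761 and NCU07479, at distances of 1.44 to 1.78 on the log2 scale. None was close, as the distance of more than 1 amounts to over 2-fold, and NCU05761 is of the stretch described above. NCU09391, the nearest, had 15.7, 15.8 and 5.93 normalized counts in the Avicel libraries, against 37.6, 34.7 and 130 on No Carbon. NCU07479 had 12.5, 6.79 and 11.9 in the Avicel libraries, against 18.6, 18.7 and 90.5 on No Carbon. NCU02638 had 10.5, 23.8 and 0 in the Avicel libraries, against 56.6, 22.3 and 60.3 on No Carbon, where library 3 was close to library 1. NCU09342 had a log2 ratio of -2.63, and its No Carbon libraries were not solved. In NCU09391 and NCU07479 No Carbon library 3 was the highest, as in *poi-2*, but by less than 5 times.

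Genes of asexual spore formation were counted beside these results, as conidia are another cell type that cultures of hyphae can hold. Of 9 such genes, 7 were at least 2-fold lower on Avicel, against 4.74% of all genes, with a median log2 ratio of -1.34 over the 9. The number was 7 with equal sums, against 13.8% of all genes, and 6 with median centring and with a pseudocount of 10. All 4 conidial markers, *con-6* (NCU08769), *con-8* (NCU09235), *con-10* (NCU07325) and *eas*, were among them, with log2 ratios from -2.15 for *eas* to -1.22 for *con-8*, and none was at 0 in either group. Their summed mean was 143398 on Avicel and 581127 on No Carbon. At these levels single libraries could not be solved, and the part of conidia in the difference of *poi-2* was not tested. The exceptions of the list were *csp-2* (NCU06095) and *acon-2* (NCU00478), which had log2 ratios of 0.26 and 0.45 and turned lower with equal sums.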

How the data were processed

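RNA of hyphae was sequenced after oligo-dT enrichment. Per the labels and the study's methods, the authors mapped reads with TopHat2 2.0.4 after CASAVA 1.8.0, counted them per gene over unique exons in HTSeq, and used DESeq for the comparison; the genome build is not given in the sources used here. The deposited signal values are group means of counts divided by size factors, with no value per library. The authors' fold changes, p-values and adjusted p-values in the same table were not used.

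Ratios were taken from the group means, without a pseudocount, over genes with a mean over both groups of at least 10. The worth of 1 read per library was found from the lowest means, and whole reads were solved where 1 solution existed within the rounding of the file. In the table, 3068 of 3068 genes with a mean up to 500 on Avicel and 1987 of 2194 with a mean up to 200 on No Carbon had 1 solution. The solving was tested on simulated data. Library totals were estimated as the size factor times the summed means. The members and lists were chosen with earlier results of these data known. Named were all 9 genes, their neighbours, the extremes of each list and genes of a list past 2-fold, and the 5 genes nearest to *poi-2* and *ccg-4*. Some list genes, the stretch beside *poi-2* and NCU11984 were named after values were seen. RefSeq symbols matched 9078 of 9582 identifiers, and none of its coordinates are given. Alternatives were equal sums, median centring, pseudocounts of 1 and 10, a fold limit of 4, a minimum mean of 100 or none, and leaving out single libraries. Python 3.11.15, numpy 2.4.6, pandas 2.3.3, scipy 1.17.1 and matplotlib 3.10.9 were used.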

Additional observations from a re-analysis of the deposited data

How the results depend on the processing

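No paired analysis was possible because the table holds 1 mean per group and the solved libraries carry no replicate number. Median centring and the pseudocounts of 1 and 10 turned no member's direction, but a pseudocount of 10 brought *poi-2* to -3.11 and *mat A-3* to 0.23. For *mat A-1*, *ccg-4*, *pre-1* and *sub-1* no spread between libraries is known, and shifts were judged by that of other genes. With equal sums the log2 ratios were -0.12 for *mat A-1*, 0.62 for *ccg-4*, 0.11 for *pre-1*, -0.45 for *pre-2*, -0.76 for *fmf-1* and -0.43 for *sub-1*, of which *mat A-1*, *pre-2* and *sub-1* turned. Leaving out single libraries of either group gave -5.55 to -1.79 for *poi-2* and 0.24 to 0.96 for *mat A-3*. For *pre-2* and *fmf-1* only Avicel libraries could be left out, which gave -0.16 to 0.14 and -0.36 to -0.26. Their No Carbon libraries allowed more than 1 set of reads, so those ranges do not cover the spread on No Carbon. *mat A-2* has no ratio. The number of members at least 2-fold higher on Avicel was 1 and became 0 with equal sums and 0 at a fold limit of 4. The number at least 2-fold lower was 1, and became 0 at a minimum mean of 100, which removes *poi-2*. Without a minimum it became 2, where *mat A-2* is counted for its 0 on Avicel although its difference was not tested. Over all genes, 671 were at least 2-fold higher and 416 lower. These became 388 and 1208 with equal sums, 243 and 57 at a fold limit of 4, and 734 were lower without a minimum. The share of genes with a higher mean on Avicel was 48.9% and became 18.2% with equal sums. Depth limits *mat A-2*, *mat A-3* and *poi-2* on Avicel, where 0, 14 and 7 reads were found in all.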
